A study of Homo sapiens with 10 samples.

Results

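ORC1BP32, a line of HCT116 human colorectal carcinoma cells labelled as an ORC1 mutant, was compared with the wild-type (WT) HCT116 line on 2 arrays each, 4 of the 10 Affymetrix arrays of the series. The members were the 2 ORC1BP32 and the 2 WT columns of the deposited table, set against each other by replicate number, with every probe set that carried a gene name (16098 of 53617). The other 6 arrays came from 3 further mutant lines, ORC1B14 (ORC1) and ORC2B2 and ORC2BP8 (ORC2). All lines were untreated HCT116 cells. The labels give neither the kind of mutation nor how many clones a line holds, and each genotype label stands for 1 line, so mutation and line cannot be told apart. Replicates are titled biological, but nothing says that they came from separate cultures, so the spread behind each p-value may be technical. Values are log2 expression levels. No label gives the log base, which was taken from how far the values reach, and every difference is ORC1BP32 minus WT unless stated otherwise.

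ORC1 is the largest subunit of the origin recognition complex, an ATPase that binds replication origins. With CDC6 and CDT1 it loads the MCM helicase onto DNA in G1, a step called licensing, and the loaded helicases are activated in S phase, when CDC45 and the GINS complex join them. Many genes of licensing, DNA synthesis and the G1/S transition are transcribed under E2F factors. Of ORC1 to ORC6, 0 of 6 were named in the probe annotation used here, so the targeted gene was not analysed here and the genotype labels were not checked against it.

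The arrays resembled each other closely. Medians over all probe sets were 3.94 and 3.89 in ORC1BP32, against 3.96 and 3.87 in WT, and the correlation of ORC1BP32 with WT arrays (0.976 to 0.987) covered the range between arrays of 1 line (0.979 to 0.984). Epithelial markers were present, with all 5 of the named ones (EPCAM, KRT8, KRT18, KRT19 and CLDN4) above the array median on all 4 arrays. Of the markers of other cell types, THY1, SPI1 and APOA1 were above the median on all 4 arrays, while DCN, LUM, CD14, ALB, TF, FGB and STMN2 were below it on all 4. The number of arrays limits the precision. With 2 arrays against 2, an exact permutation test cannot give a two-sided p below 0.333, so the spread was estimated with limma across all 10 arrays.

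Among 10797 genes tested, 2 passed an adjusted p of 0.05 (limma, Benjamini-Hochberg), both lower in ORC1BP32 (0.0185% of genes), and none was higher (0%). ADGRF1, an adhesion G protein-coupled receptor gene on chromosome 6 (probe set 17019778), had 4.68 and 4.65 in ORC1BP32, against 7.36 and 6.76 in WT. It fell by 2.40 log2 units (SE 0.30, adjusted p = 0.0412). Against the same WT arrays its difference was -2.48 in ORC1B14, -2.70 in ORC2B2 and -2.65 in ORC2BP8. TRIB3, on chromosome 20 (probe set 16910609), encodes a pseudokinase and is a target of the stress-response factor ATF4. Its values were 6.38 and 6.32 in ORC1BP32, against 8.28 and 8.40 in WT, and it fell by 1.99 (SE 0.25, adjusted p = 0.0412). For both genes the 2 groups stood far apart and both ORC1BP32 arrays lay close together. Both calls ended after quantile normalization, after centring on array medians and with no filter on dim probe sets. They also ended without either ORC1BP32 array, without either WT array and without either ORC2BP8 array, and that of TRIB3 also without either ORC1B14 array. Over all 18 alternative settings the differences lay between -2.70 and -2.10 for ADGRF1 and between -2.05 and -1.92 for TRIB3, with adjusted p-values of 0.0031 to 0.548.

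Beyond these genes, 570 were higher (5.28%) and 520 lower (4.82%) at an unadjusted p under 0.05. The median absolute difference between ORC1BP32 and WT was 0.19, while it was 0.23 between the 2 ORC1BP32 arrays and 0.22 between the 2 WT arrays. The first value compares means of 2 arrays and the others compare single arrays, so they are not on an equal footing. Groups did not overlap for 2555 genes with higher values in ORC1BP32 (23.7%) and for 1972 with lower ones (18.3%). With a difference of at least 2-fold as well, 45 were higher (0.417%) and 81 lower (0.75%). The sign was the same in both replicate numbers for 6879 genes (63.7%), and 55.3% of all genes had a difference above 0 and 44.7% below 0, with a median of 0.04. The counts and medians of the gene groups below are read against these values. Genes said to pass the adjusted threshold, or not, are those of the fit without the replicate number as a block. With that block 57 genes passed against WT and 29 against the other mutant lines, and the closing section names some, list members included.

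**Figure D1:**
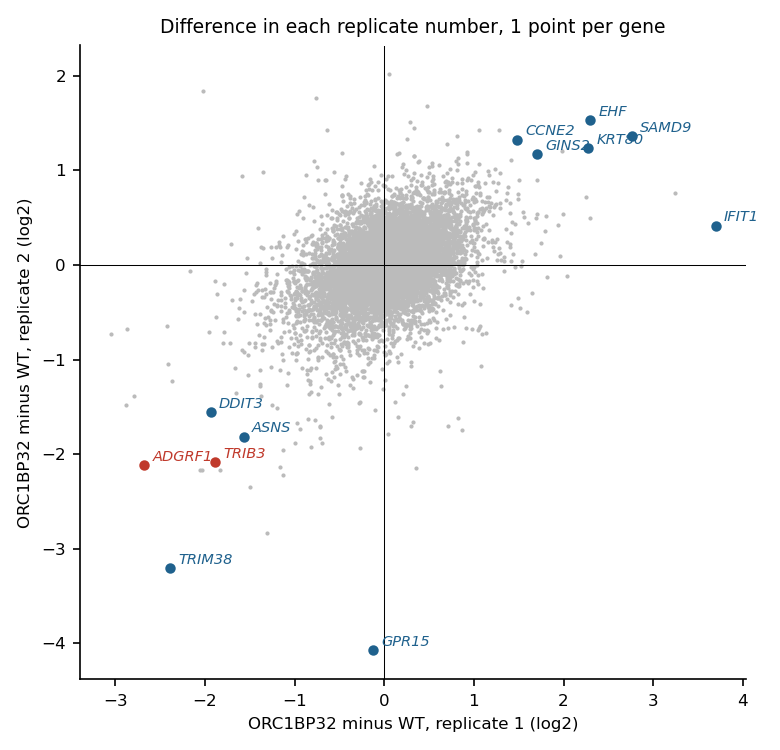
Each point is 1 tested gene, with ORC1BP32 minus WT (log2) in replicate 1 on the horizontal axis and in replicate 2 on the vertical axis. Red points are the 2 genes with an adjusted p of at most 0.05, ADGRF1 and TRIB3, and blue points are other genes named in the text. IFIT1 and GPR15 lie far out in only 1 replicate number.

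Genes of origin licensing and the MCM helicase were mostly higher in ORC1BP32 than in WT. Of 15 tested genes, 14 had a difference above 0, 8 were higher and 0 lower at an unadjusted p under 0.05, and the median difference was 0.57 (0.72 in replicate 1 and 0.48 in replicate 2). None passed the adjusted threshold of limma (0 of 15). MCM5, a subunit of the helicase ring, had 8.87 and 8.97 in ORC1BP32, against 7.39 and 8.23 in WT (difference 1.12, SE 0.33, adjusted p = 0.294). MCM2, another subunit, had 8.54 and 8.47 in ORC1BP32, against 7.17 and 7.71 in WT (1.07, SE 0.27, adjusted p = 0.221). CDC6, the loader that joins ORC at origins, had 9.18 and 9.30 in ORC1BP32, against 8.16 and 8.47 in WT (0.93, SE 0.18, adjusted p = 0.141). In each of these genes both ORC1BP32 arrays were above both WT arrays, and WT replicate 1 was the lowest of the 4. MCM4 (0.91), MCM7 (0.70), MCM3 (0.56), the licensing factor CDT1 (0.65) and the ORC-associated LRWD1 (0.52) completed the 8. RNA came from whole cultures, so more cells in a phase of the cycle and more RNA per cell cannot be told apart. The mean level over the 15 genes was 8.65 and 8.85 in ORC1BP32, against 8.03 and 8.33 in WT. Without WT replicate 1 the count at an unadjusted p under 0.05 was 3 and the median 0.42.

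The promoters of the licensing and fork genes were searched on both strands for the E2F letters TTCGCGC or TTGGCGC, in the RefSeq promoter table (GRCh38.p14, from 250 bases before to 50 after each gene start). The letters occurred in 6 of 13 promoters of the licensing list (46.2%) and in 4 of 17 of the fork list (23.5%). They occurred in 1414 of 27305 promoters of the whole table (5.18%) and in 647 of 8245 promoters of tested genes (7.85%). A match on one strand can overlap a match on the other, and a promoter was counted once. A match is a description of the letters and does not show binding. Matches in MCM3, MCM6, MCM8, TIMELESS and TOPBP1 (differences 0.56, 0.57, 0.02, 0.47 and 0.32) are not printed. Shown are the 5 members at an unadjusted p under 0.01 whose match lies in the printed window, each as 110 bases from 80 before to 30 after the gene start, 5′ to 3′ on the gene's strand, with the matched letters in capitals. They are CDC6 (chr17:40287799-40287908, plus strand), MCM2 (chr3:127598331-127598440, plus), MCM7 (chr7:100101368-100101477, minus), GINS1 (chr20:25407593-25407702, plus) and DNMT1 (chr19:10194924-10195033, minus).
CDC6: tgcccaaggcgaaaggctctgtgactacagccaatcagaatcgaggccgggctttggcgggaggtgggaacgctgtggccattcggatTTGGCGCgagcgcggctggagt
MCM2: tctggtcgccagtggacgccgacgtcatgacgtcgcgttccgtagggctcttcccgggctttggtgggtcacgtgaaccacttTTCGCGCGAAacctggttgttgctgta
MCM7: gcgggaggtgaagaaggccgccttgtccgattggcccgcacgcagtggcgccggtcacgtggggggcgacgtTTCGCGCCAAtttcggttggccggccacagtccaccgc
GINS1: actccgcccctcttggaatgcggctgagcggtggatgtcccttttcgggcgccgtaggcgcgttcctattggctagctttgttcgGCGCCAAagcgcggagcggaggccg
DNMT1: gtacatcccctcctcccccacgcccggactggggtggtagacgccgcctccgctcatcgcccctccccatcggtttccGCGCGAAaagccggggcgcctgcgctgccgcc

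Genes of the replication fork and of chromatin assembly behind it had the same direction. All 20 tested genes had a difference above 0, 12 were higher and 0 lower at an unadjusted p under 0.05, and the median was 0.57 (0.57 in replicate 1 and 0.52 in replicate 2). None passed the adjusted threshold of limma (0 of 20). GINS2, a subunit of the GINS complex, had 8.03 and 8.38 in ORC1BP32, against 6.32 and 7.21 in WT (difference 1.44, SE 0.38, adjusted p = 0.233). FEN1, the flap endonuclease of Okazaki fragment processing, had 7.53 and 7.88 in ORC1BP32, against 6.32 and 7.35 in WT (0.87, adjusted p = 0.446). CLSPN, which carries checkpoint signals at the fork, had 8.12 and 8.56 in ORC1BP32, against 7.30 and 7.80 in WT (0.80, adjusted p = 0.458). As with the licensing genes, WT replicate 1 was the lowest array. GINS1 (0.76), the sliding clamp PCNA (0.73), the helicase RECQL4 (0.78) and the maintenance DNA methyltransferase DNMT1 (0.49) were among the others. The count at an unadjusted p under 0.05 was 5 without WT replicate 1 and 7 without ORC1BP32 replicate 2.

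Regulators of the G1/S transition and enzymes of nucleotide synthesis were also mostly higher in ORC1BP32. Of 25 tested, 22 had a difference above 0, 9 were higher and 1 lower at an unadjusted p under 0.05, and the median was 0.36 (0 of 25 passed the adjusted threshold of limma). CCNE2, cyclin E2, which activates CDK2 at S phase entry, had 7.61 and 7.86 in ORC1BP32, against 6.13 and 6.53 in WT (difference 1.40, SE 0.24, adjusted p = 0.114). The CDK-activating phosphatase gene CDC25A had 7.54 and 7.60 in ORC1BP32, against 6.60 and 6.67 in WT (0.93, adjusted p = 0.231). CCND3, cyclin D3, had 5.50 and 5.21 in ORC1BP32, against 4.55 and 4.57 in WT (0.79, adjusted p = 0.231). In these 3 genes the groups did not overlap, and the arrays of a group lay nearer to each other than to the other group. E2F1 (0.78), TYMS, which encodes thymidylate synthase (0.76), and RRM2, a ribonucleotide reductase subunit (0.60), also had positive differences. RBL2, a pocket protein that represses E2F targets, was the 1 lower gene, with 7.09 and 7.34 in ORC1BP32, against 7.76 and 7.80 in WT (-0.56, adjusted p = 0.394). Without WT replicate 1 the count of 10 became 4.

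All 33 tested genes of mitosis and cytokinesis had a difference above 0, with a median of 0.33, and 10 were higher and 0 lower at an unadjusted p under 0.05 (0 of 33 passed the adjusted threshold of limma). MYBL2, a transcription factor of the G2/M programme, had 8.79 and 9.11 in ORC1BP32, against 7.38 and 8.0 in WT (difference 1.26, SE 0.31, adjusted p = 0.216). HMMR, a spindle protein gene, had 9.48 and 9.48 in ORC1BP32, against 8.94 and 8.73 in WT (0.65, adjusted p = 0.291). FOXM1, another G2/M factor, had 9.0 and 8.92 in ORC1BP32, against 8.21 and 8.46 in WT (0.63, adjusted p = 0.271). The count was 5 without WT replicate 1, with a median of 0.22, and 6 without ORC1BP32 replicate 2. Genes of the DNA damage checkpoint, homologous recombination and the Fanconi pathway stood nearer to the median of all genes. Of 27 tested, 17 were above 0, 3 were higher and 0 lower at an unadjusted p under 0.05 (0 by the adjusted p of limma), and the median was 0.15. Largest there were the helicase BRIP1 (0.89), the nuclease EXO1 (0.75) and the recombinase paralogue RAD51C (0.61). The count was 0 without WT replicate 1 and 1 without ORC1BP32 replicate 2, with medians of 0.08 and 0.04. Of 15 tested p53 targets, 2 were higher and 0 lower at an unadjusted p under 0.05, with a median of 0.22. They were the BCL2-family genes PMAIP1 (0.76) and BAX (0.57). PMAIP1 had 9.67 and 8.73 in ORC1BP32, against 8.15 and 8.74 in WT, so only replicate 1 stood apart. Without any 1 of the 4 arrays the p53 count was 1.

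In the other mutant lines, ORC1B14, ORC2B2 and ORC2BP8 minus WT had medians of 0.68, 0.78 and 0.56 over the licensing genes and 0.60, 0.72 and 0.63 over the fork genes. For the mitosis genes they were 0.43, 0.46 and 0.53. All lines share the 2 WT arrays, so these values stand side by side and are not independent. ORC1BP32 minus the mean of the other 3 mutant lines, which uses no WT array, had medians of -0.08 for licensing, -0.01 for fork and -0.10 for mitosis genes.

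**Figure D2:**
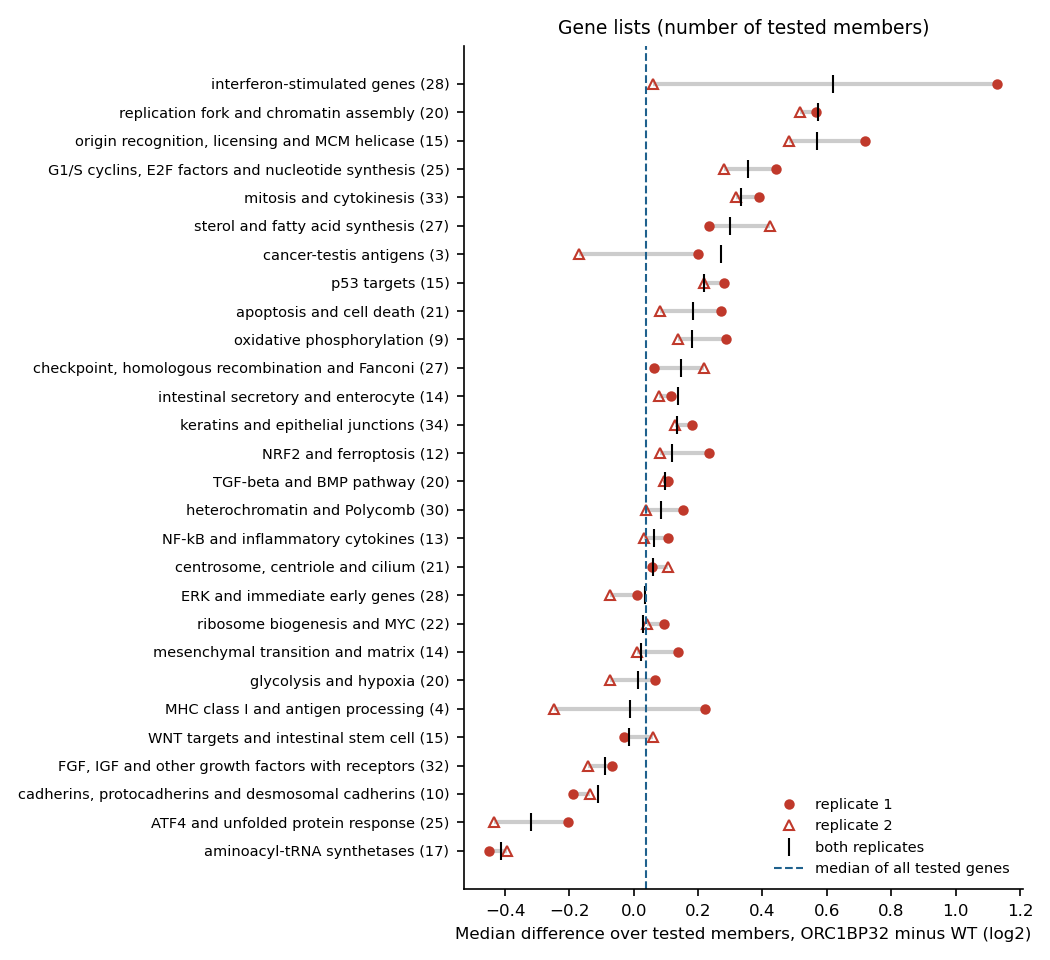
Median ORC1BP32 minus WT difference (log2, horizontal axis) over the tested members of each of 28 gene lists, with the number of members in brackets. Circles are replicate 1, triangles replicate 2 and bars both, and the dashed line is the median of all tested genes, 0.04. Licensing and fork genes lie right of the line in both replicates and tRNA synthetases left of it, while the interferon list lies at 1.13 in replicate 1 and 0.06 in replicate 2.

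Genes of the amino acid response under ATF4 were mostly lower in ORC1BP32. ATF4 is the transcription factor translated when eIF2 alpha is phosphorylated, on amino acid shortage or stress of the endoplasmic reticulum, and it induces amino acid synthesis and uptake genes. Of 25 tested genes of ATF4 and the unfolded protein response, 18 had a difference below 0, 10 were lower and 3 higher at an unadjusted p under 0.05, and the median was -0.32 (-0.21 in replicate 1 and -0.43 in replicate 2). TRIB3 was the 1 member that passed the adjusted threshold. DDIT3, encoding the stress factor CHOP, had 4.63 and 5.21 in ORC1BP32, against 6.56 and 6.76 in WT (difference -1.74, SE 0.26, adjusted p = 0.074). ASNS, asparagine synthetase, had 7.60 and 7.70 in ORC1BP32, against 9.17 and 9.51 in WT (-1.69, SE 0.27, adjusted p = 0.0901). DDIT4, an inhibitor of mTORC1 signalling, had 7.28 and 7.06 in ORC1BP32, against 8.47 and 8.57 in WT (-1.35, adjusted p = 0.145). In these genes every ORC1BP32 array lay more than 1 log2 unit below every WT array. The serine synthesis genes PSAT1 and PHGDH had differences of -1.33 and -1.03, and STC2 one of -1.0. PSPH, the other serine synthesis gene of the list, had a difference of -0.17.

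The 3 higher members of that list encode proteins of the endoplasmic reticulum. SDF2L1 had 6.79 and 6.67 in ORC1BP32, against 5.74 and 5.79 in WT (difference 0.96, adjusted p = 0.141), CRELD2 had a difference of 0.69, and the chaperone calreticulin, CALR, one of 0.35. The members of this list thus differed in direction. Without WT replicate 2 its median was -0.20. The letters TGATGCA, a core of the C/EBP-ATF response element, occurred on either strand in 1 of 22 promoters of the list (4.55%), that of PHGDH, against 735 of 27305 promoters of the table (2.69%) and 117 of 8245 of tested genes (1.42%). Side by side, TRIB3 had differences of -1.70 in ORC1B14, -1.56 in ORC2B2 and -1.67 in ORC2BP8, and the list medians there were -0.38, -0.43 and -0.51, all against the same WT arrays.

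Aminoacyl-tRNA synthetases, which charge tRNAs with their amino acids, were mostly lower as well. Of 17 tested, 13 had a difference below 0, 8 were lower and 0 higher at an unadjusted p under 0.05, and the median was -0.41 (-0.45 in replicate 1 and -0.39 in replicate 2). None passed the adjusted threshold of limma (0 of 17). SARS1, the seryl-tRNA synthetase gene, had 8.11 and 8.07 in ORC1BP32, against 8.98 and 9.22 in WT (difference -1.01, SE 0.18, adjusted p = 0.117). AARS1, for alanine, had 10.38 and 10.40 in ORC1BP32, against 11.29 and 11.48 in WT (-1.0, SE 0.16, adjusted p = 0.0901). CARS1, for cysteine, had 7.18 and 7.31 in ORC1BP32, against 8.02 and 8.15 in WT (-0.84, adjusted p = 0.172). In all 3 the arrays of a line lay close together and the lines did not overlap. Glycyl (GARS1, -0.81), leucyl (LARS1, -0.63), tyrosyl (YARS1, -0.56), methionyl (MARS1, -0.53) and threonyl (TARS1, -0.46) synthetases made up the 8. Without either WT array the count was 5. The mean level over the 17 genes was 9.14 and 9.28 in ORC1BP32, against 9.56 and 9.66 in WT. In ORC1B14, ORC2B2 and ORC2BP8 the list medians were -0.38, -0.15 and -0.50, against the same WT arrays.

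Genes of sterol and fatty acid synthesis, which SREBP factors induce when membrane sterol is low, were mostly higher in ORC1BP32. Of 27 tested, 20 had a difference above 0, 12 were higher and 0 lower at an unadjusted p under 0.05, and the median was 0.30 (0.23 in replicate 1 and 0.42 in replicate 2). None passed the adjusted threshold of limma (0 of 27). Against the same WT arrays the list medians were 0.19 in ORC1B14, 0.31 in ORC2B2 and 0.27 in ORC2BP8. MVD, an enzyme of the mevalonate pathway, had 8.02 and 7.0 in ORC1BP32, against 6.46 and 6.44 in WT (difference 1.06, SE 0.29, adjusted p = 0.255). ACAT2, the cytosolic thiolase that feeds this pathway, had 7.51 and 7.91 in ORC1BP32, against 6.68 and 6.78 in WT (0.98, SE 0.23, adjusted p = 0.214). INSIG1, which holds the SREBP precursor back and is itself a target of SREBP, had 9.72 and 9.63 in ORC1BP32, against 8.76 and 8.73 in WT (0.93, SE 0.17, adjusted p = 0.114). The 2 groups did not overlap in these genes. HMGCS1 (0.85), NSDHL (0.81), DHCR7 (0.80), MVK (0.77) and IDI1 (0.74) belong to the same route to cholesterol. The counts without 1 of the 4 arrays lay between 10 and 12, with a median of 0.47 without WT replicate 1.

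Interferon-stimulated genes had the highest median of the 28 lists, but mainly through 1 array, and with no filter on dim probe sets that median was 0.32. Of 28 tested, 24 had a difference above 0, 11 were higher and 1 lower at an unadjusted p under 0.05, and the median was 0.62 (0 of 28 passed the adjusted threshold of limma). The median was 1.13 in replicate 1, with 25 genes above 0, and 0.06 in replicate 2, with 15 above 0. The mean level over the 28 genes was 6.89 and 6.13 in ORC1BP32, against 5.73 and 6.07 in WT. ORC1BP32 replicate 1 was thus the highest array, and replicate 2 lay close to WT replicate 2. Without ORC1BP32 replicate 1 the median was 0.26, with 2 genes higher and 1 lower at an unadjusted p under 0.05. Without ORC1BP32 replicate 2 the median was 1.04, and without WT replicate 1 it was 0.41, with 4 genes higher.

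SAMD9, an antiviral factor gene, had 9.72 and 8.24 in ORC1BP32, against 6.95 and 6.88 in WT (difference 2.06, SE 0.55, adjusted p = 0.241). IFIT1, whose protein binds foreign RNA, had 7.49 and 5.04 in ORC1BP32, against 3.79 and 4.62 in WT (2.06, SE 0.61, adjusted p = 0.302). Its WT replicate 1 was below the array median. IFI44 had 5.21 and 3.94 in ORC1BP32, against 2.95 and 3.22 in WT (1.49, adjusted p = 0.271), with both WT arrays below the array median. In all 3, replicate 1 was more than 1 log2 unit above replicate 2 in ORC1BP32, and SAMD9 had both ORC1BP32 arrays well above WT. ISG15, a ubiquitin-like modifier, had 9.13 and 7.78 in ORC1BP32, against 6.83 and 7.29 in WT (1.39, adjusted p = 0.298). Of the 4 members with a difference below 0, SLFN5 was the 1 lower at an unadjusted p under 0.05. It had 8.79 and 8.36 in ORC1BP32, against 9.64 and 9.99 in WT (-1.24, SE 0.27, adjusted p = 0.177). The cytosolic RNA sensor RIGI had 9.19 and 8.22 in ORC1BP32, against 7.62 and 7.71 in WT (1.04, adjusted p = 0.405). Both of its ORC1BP32 arrays were above all 8 other arrays, as were those of SAMD9.

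**Figure D3:**
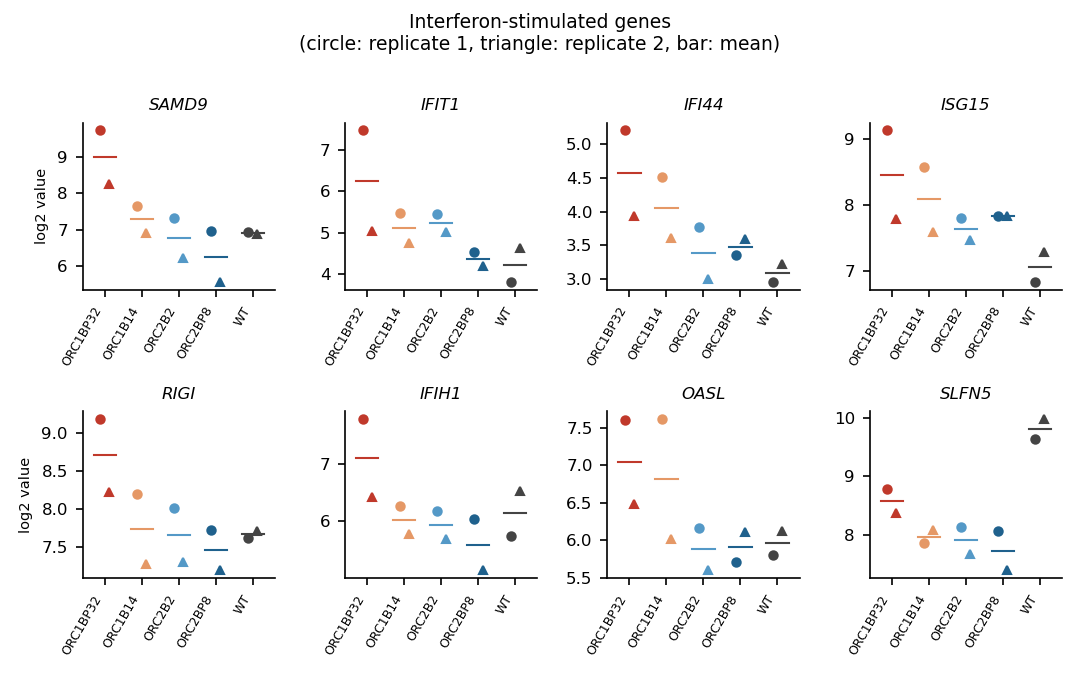
Log2 level (vertical axis) of 8 interferon-stimulated genes on each array of the 5 lines, with replicate 1 as a circle, replicate 2 as a triangle and the mean as a bar. In 7 of the 8 genes ORC1BP32 replicate 1 lies above ORC1BP32 replicate 2 and above both WT arrays, and in SLFN5 both WT arrays are highest.

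Growth factor genes held some of the lowest differences. Of 32 tested growth factors and receptors, 6 were lower and 1 higher at an unadjusted p under 0.05, and the list median was -0.09, close to that of all genes (0 of 32 passed the adjusted threshold of limma). FGF9 had 4.66 and 4.66 in ORC1BP32, against 6.71 and 6.83 in WT (difference -2.11, SE 0.37, adjusted p = 0.114). FGF2 had 6.35 and 6.53 in ORC1BP32, against 7.49 and 8.74 in WT (-1.67, SE 0.53, adjusted p = 0.322). FGF19, which signals through FGFR4 and limits bile acid synthesis in the liver, had 7.36 and 7.45 in ORC1BP32, against 8.53 and 9.58 in WT (-1.65, SE 0.30, adjusted p = 0.114). The ORC1BP32 arrays agreed closely in each of these FGF genes, and in FGF2 and FGF19 the WT arrays were more than 1 log2 unit apart. KITLG, the ligand of the receptor KIT, had a difference of -1.33, and the receptor tyrosine kinase gene MET one of -0.64. VEGFA (-0.70) was the other lower member. IGFBP6, a binding protein of insulin-like growth factor 2, was the higher one (0.87).

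Cell adhesion genes differed member by member. Of 10 tested cadherins, 3 were lower and 0 higher at an unadjusted p under 0.05, with a median of -0.11. The protocadherin gene PCDH7 had 3.77 and 3.74 in ORC1BP32, both below the array median, against 5.60 and 5.91 in WT (difference -2.0, SE 0.28, adjusted p = 0.074). The desmosomal cadherin DSC3 had 5.90 and 5.78 in ORC1BP32, against 6.64 and 7.14 in WT (-1.05, adjusted p = 0.209), and DSC2 had a difference of -0.56. Of 34 tested genes of keratins and epithelial junctions, 4 were higher and 1 lower at an unadjusted p under 0.05, with a median of 0.14. EHF, an epithelial ETS transcription factor, had 6.06 and 5.50 in ORC1BP32, against 3.76 and 3.97 in WT (1.91, SE 0.45, adjusted p = 0.214). Its WT replicate 1 was below the array median. KRT80, a type II keratin, had 7.18 and 6.26 in ORC1BP32, against 4.91 and 5.03 in WT (1.75, SE 0.36, adjusted p = 0.145). KRTAP2-3, a keratin-associated protein gene, had 7.60 and 6.52 in ORC1BP32, against 5.80 and 6.01 in WT (1.16, adjusted p = 0.386). The groups did not overlap in any of these 3 genes. The 1 lower gene was the tight junction gene OCLN (-0.63), and without ORC1BP32 replicate 1 the count of 5 became 3, with a median of 0.03.

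Several of the widest differences lay outside the lists. TRIM38, a regulator of innate immune signalling, had 4.04 and 3.63 in ORC1BP32, against 6.43 and 6.83 in WT (difference -2.80, SE 0.76, adjusted p = 0.26). SYT1, encoding a calcium sensor of vesicle release in neurons, had 5.68 and 5.73 in ORC1BP32, against 7.71 and 7.90 in WT (-2.10, SE 0.33, adjusted p = 0.0834). The groups were well apart in both genes, with ORC1BP32 replicate 2 below the array median for TRIM38. GPR15, a chemoattractant receptor gene of lymphocytes, had 3.93 and 3.58 in ORC1BP32, against 4.05 and 7.65 in WT, so that WT replicate 2 alone set its difference of -2.10 (adjusted p = 0.421). It passed the filter on the WT arrays alone, both ORC1BP32 arrays being below the array median. The difference was -3.90 without WT replicate 1 and -0.30 without WT replicate 2. The neighbouring genes TMEM200A (-2.07, adjusted p = 0.279) and SAMD3 (-1.92, adjusted p = 0.141, both ORC1BP32 arrays below the array median) overlap in the annotation of chromosome 6, and whether their probe sets share signal was not tested. The microRNA genes MIR548I2 (-2.18, adjusted p = 0.216) and MIR548I1 (-2.09, adjusted p = 0.31) belong to 1 family of near-identical copies and are uncertain as separate genes. Another microRNA gene, MIR222, had 4.66 and 6.14 in ORC1BP32, against 7.71 and 6.87 in WT (-1.89, adjusted p = 0.394). All genes of this paragraph were also lower in ORC1B14, ORC2B2 and ORC2BP8, against the same WT arrays. In these lines, in that order, TRIM38 had differences of -2.14, -1.57 and -2.30, and SYT1 of -1.57, -1.48 and -2.91.

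On the higher side, the non-coding VTRNA2-1 had 6.09 and 4.88 in ORC1BP32, against 2.84 and 4.12 in WT (difference 2.01, SE 0.46, adjusted p = 0.209). GLIPR1 had 5.84 and 6.14 in ORC1BP32, against 3.85 and 4.94 in WT (1.59, SE 0.37, adjusted p = 0.213). The kallikrein-related protease KLK6 had 9.67 and 9.22 in ORC1BP32, against 8.39 and 7.79 in WT (1.35, SE 0.40, adjusted p = 0.302). LYPD3, a membrane-anchored protein of the Ly6 family, had 6.92 and 6.70 in ORC1BP32, against 5.22 and 5.80 in WT (1.30, SE 0.29, adjusted p = 0.185). In these 4 genes the groups did not overlap, which the rule that named them required. Within VTRNA2-1 and GLIPR1 the WT arrays were more than 1 log2 unit apart, and WT replicate 1 was below the array median. Against the same WT arrays, VTRNA2-1 had differences of 1.70 in ORC1B14, 1.22 in ORC2B2 and 1.33 in ORC2BP8. In the same order KLK6 had 1.95, 1.48 and 0.75, LYPD3 0.88, 0.66 and 0.67, and GLIPR1 1.0, 0.02 and 0.04.

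**Figure D4:**
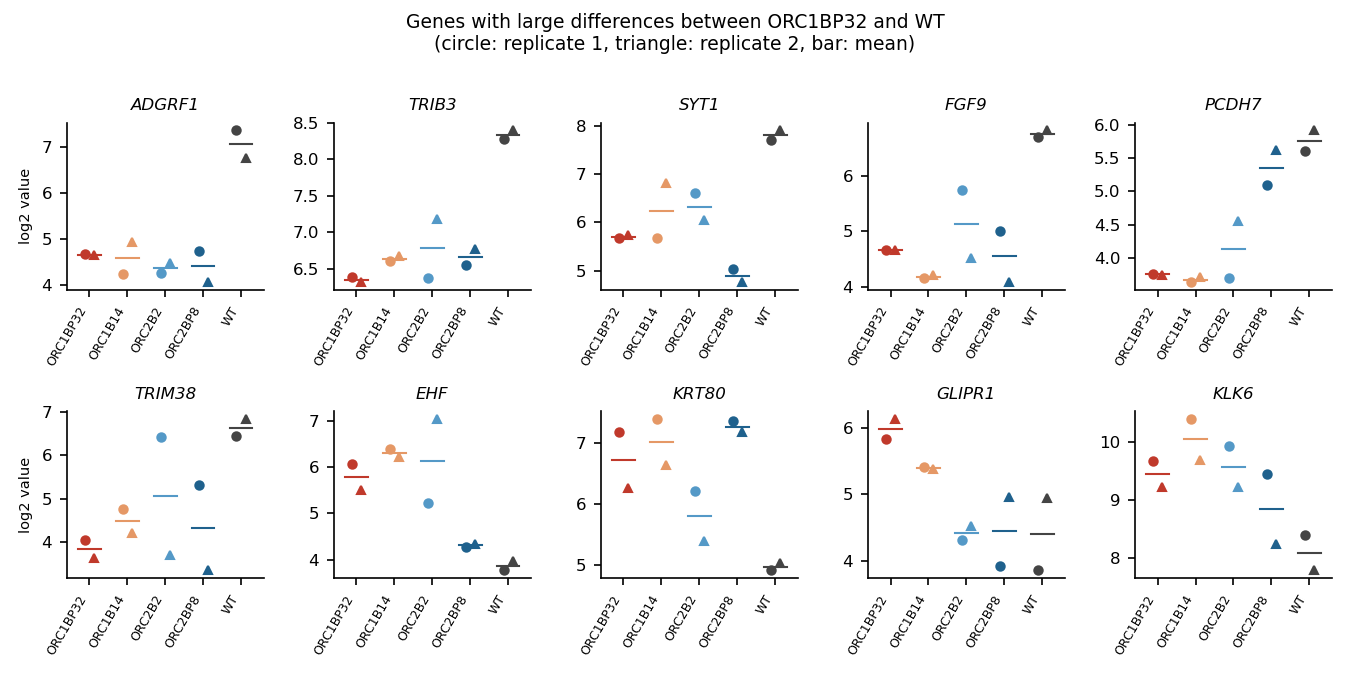
Log2 level (vertical axis) of 10 genes on each array of the 5 lines, with replicate 1 as a circle, replicate 2 as a triangle and the mean as a bar. Both ORC1BP32 arrays lie below both WT arrays in ADGRF1, TRIB3, SYT1, FGF9, PCDH7 and TRIM38, and above them in EHF, KRT80, GLIPR1 and KLK6. The vertical axes do not start at 0.

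ORC1BP32 was then set against the mean of ORC1B14, ORC2B2 and ORC2BP8, to ask where it differed from the other mutant lines. No gene passed the adjusted threshold (limma, 0 of 10797, 0%, smallest adjusted p 0.0708), and 321 were higher (2.97%) and 241 lower (2.23%) at an unadjusted p under 0.05. Both ORC1BP32 arrays were above all 6 others for 377 genes (3.49%) and below them for 329 (3.05%). GRHL2, a transcription factor of epithelial identity, had 7.72 and 7.53 in ORC1BP32, against 6.22 and 5.80 in ORC1B14, 4.86 and 5.19 in ORC2B2 and 7.42 and 7.02 in ORC2BP8 (difference 1.54, SE 0.20, adjusted p = 0.0708). IRS1, the adaptor of the insulin receptor, had 5.71 and 5.92 in ORC1BP32, against 6.87 and 7.66, 7.50 and 7.42, and 8.34 and 7.56 in the same 3 lines (-1.74, SE 0.24, adjusted p = 0.0708). FMNL3, a formin of the actin skeleton, had 4.53 and 4.18 in ORC1BP32, against 5.26 and 5.62, 5.52 and 5.99, and 5.51 and 5.55 (-1.22, SE 0.18, adjusted p = 0.0807). In each of these genes ORC1BP32 lay outside all 6 arrays of the other mutants, which the rule that named them required. GRHL2 in ORC2BP8 came close.

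Of the 5 genes named by rule on the high side, ORC1BP32 stood near WT in 4, GRHL2 among them. ANGPT2, a ligand of the endothelial receptor TIE2, had 8.12 and 6.95 in ORC1BP32, against 3.69 to 6.89 in the other mutants (difference 2.72, SE 0.60, adjusted p = 0.265), and 7.97 on both WT arrays. The calcium-binding S100A14 had 9.25 and 8.71 in ORC1BP32, against 6.07 to 8.23 in the other mutants (1.78, SE 0.34, adjusted p = 0.195), and 9.22 and 8.44 in WT. The pseudogene AQP7P3 had 6.77 and 6.60 in ORC1BP32, against 3.39 to 5.61 in the other mutants (1.91, SE 0.46, adjusted p = 0.344), and 7.43 and 5.70 in WT. It belongs to a family of near-identical copies and is uncertain as a separate gene. SAMD9, described above, was instead apart from both (2.21 against the other mutants, SE 0.45, adjusted p = 0.225).

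On the low side, NRG1, a ligand of the ERBB receptors, had 3.50 and 4.04 in ORC1BP32, against 4.13 to 7.36 in the other mutants (difference -1.91, SE 0.51, adjusted p = 0.419), with 3.85 and 4.67 in WT. Replicate 1 of ORC1BP32 and of WT was below the array median for this gene. PLK2, a p53 target and polo-like kinase of centriole duplication, had 8.05 and 8.02 in ORC1BP32, against 8.93 to 9.97 in the other mutants (-1.30, SE 0.25, adjusted p = 0.195), with 7.26 and 7.63 in WT. POPDC1, a cAMP-binding membrane protein gene, had 5.65 and 6.16 in ORC1BP32, against 6.67 to 8.66 in the other mutants (-1.71, SE 0.35, adjusted p = 0.225), with 7.01 and 7.06 in WT. Over the whole array, both ORC1BP32 arrays were above all 8 others for 180 genes (1.67%) and below them for 149 (1.38%). With at least 2-fold from WT and from the mean of the other mutants, 3 were higher and 3 lower. Higher were GLIPR1, RIGI and SAMD9, and lower were IRS1, POPDC1 and the microRNA gene MIR1205 (difference -1.36 from WT). ORC1B14 came near in GLIPR1 (5.42 and 5.38, against 5.84 and 6.14 in ORC1BP32). For RIGI, ORC1B14 replicate 1 had 8.20, against 8.22 in ORC1BP32 replicate 2. RIGI and MIR1205 were named after their values were seen.

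**Figure D5:**
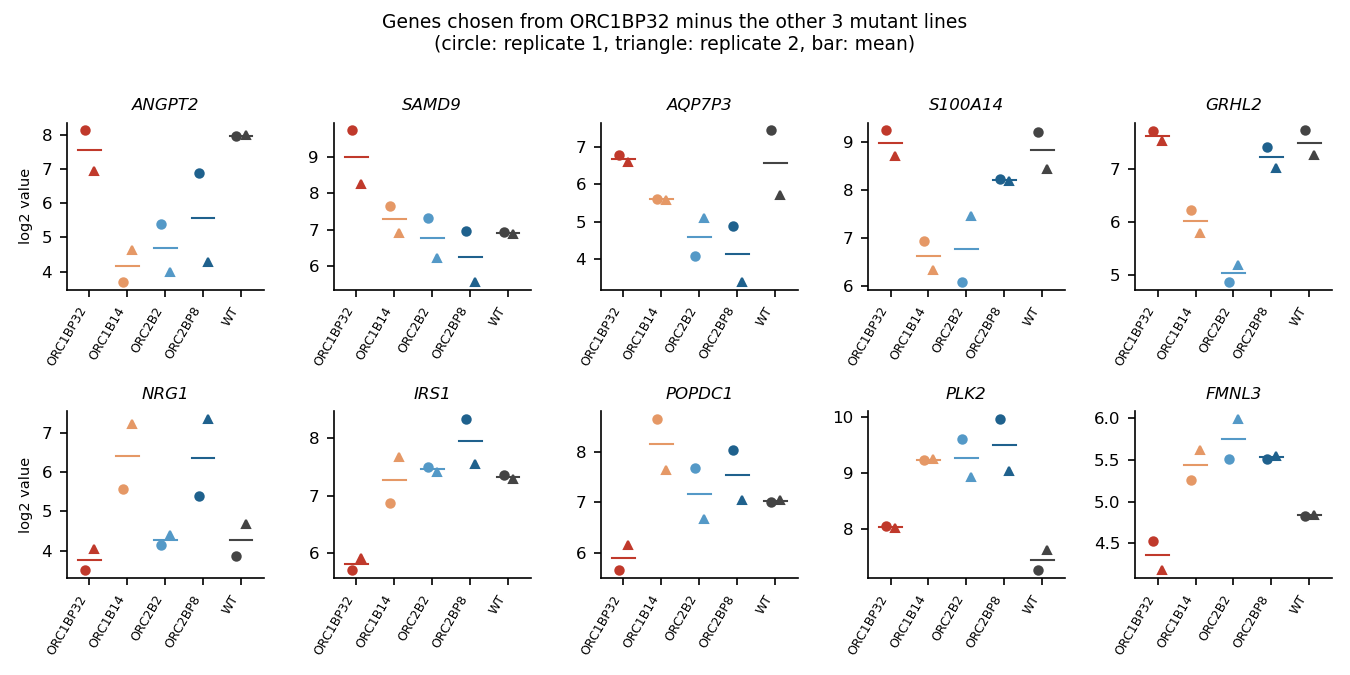
Log2 level (vertical axis) of 10 genes chosen from ORC1BP32 minus the other 3 mutant lines, on each array of the 5 lines, with replicate 1 as a circle, replicate 2 as a triangle and the mean as a bar. In ANGPT2, AQP7P3, S100A14 and GRHL2 the ORC1BP32 and WT means lie close together and above those of the other mutants. In IRS1, POPDC1 and FMNL3 both ORC1BP32 arrays lie below all others. The vertical axes do not start at 0.

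Differences were also followed along the chromosomes, in 10332 windows of 21 neighbouring tested genes. Window medians lay between -0.30 and 0.41. A stretch was a run of windows whose own median was at least 0.3 on the same side in both replicate numbers. There were 2, both on the higher side, and the median over all genes of a stretch can be lower than that of its windows. On chromosome 20, 21 genes from MRGBP to TPD52L2 had a median difference of 0.41 (0.48 in replicate 1 and 0.33 in replicate 2), with 17 above 0. OGFR, the opioid growth factor receptor gene, had 8.48 and 8.10 in ORC1BP32, against 7.20 and 7.45 in WT (0.97, SE 0.20, adjusted p = 0.145). The stretch medians of ORC1B14, ORC2B2 and ORC2BP8 against the same WT arrays were 0.33, 0.15 and 0.15. On chromosome 1, 29 genes from MIR1976 to SRSF4 had a median of 0.25 (0.30 in replicate 1 and 0.29 in replicate 2), with 22 above 0, although MIR1976 (-0.33) and SRSF4 (-0.05) at its ends were not higher. TMEM222 there had 7.22 and 7.33 in ORC1BP32, against 6.30 and 6.25 in WT (1.0, SE 0.20, adjusted p = 0.145), and GPR3 and PTAFR, 2 receptor genes, each had a difference of 0.99. The other lines had medians of 0.15, 0.06 and 0.04 in that stretch. With windows of 31 genes there were 0 stretches.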

How the data were processed

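RNA of 5 untreated HCT116 lines was measured on 10 Affymetrix arrays, 2 per line. The authors deposited 1 log2 value per probe set and array. Affymetrix Expression Console is named in the submitters' processing notes. How arrays were normalized is not given in the sources used here. Values were used without further scaling.

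Of 53617 probe sets, 16098 had exactly 1 gene symbol in the platform annotation, 0 had several and 37519 were unnamed here. All 16098 matched RefSeq by gene ID, giving 14884 genes. Probe sets at or above the array median on at least 2 arrays were kept (11554). Each of the 10797 genes tested was read from its probe set of highest mean, and 421 had more than 1. No 2 arrays were identical (0 pairs).

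Line means were fitted with limma 3.58.1 in R 4.3.3 (lmFit, eBayes with an intensity trend, 5 residual and 5.83 prior degrees of freedom). Tests were two-sided, adjusted by Benjamini-Hochberg over all tested genes at 0.05. The fit was checked on simulated data. Alternatives were scaling, the filter on dim probe sets, the fit's arrays, the trend, probe set averaging, the replicate number as a block, and leaving out each array.

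The members and the 30 gene lists (546 tested genes, 8 of them in more than 1 list) were chosen with earlier results of these data known. No list was tested. Histones and amino acid transporters had 0 tested genes. Named were, by rule, genes called against WT, and the 12 highest and 12 lowest non-overlapping ones at an unadjusted p under 0.05. Against the other mutants the rule adds the 5 highest and 5 lowest at an unadjusted p under 0.05 outside all arrays of those lines. It also adds the 3 members of largest difference of each list, and the ends and 3 members of largest difference of each stretch. Some of these list members are not printed in the text. Other list members with an unadjusted p under 0.05, and PSPH, were named after their values were seen.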

Additional observations from a re-analysis of the deposited data

Results flagged for a closer look

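S100A14 and FMNL3 stood out because both ORC1BP32 arrays deviated from the WT array of the same number in one direction and all 6 arrays of the other mutant lines in the opposite one. S100A14 was higher in ORC1BP32 than in the other 3 mutant lines by 1.78 (SE 0.34), with an adjusted p of 0.195 by limma. ORC1BP32 minus WT was only 0.15 for this gene, with 9.25 and 8.71 in ORC1BP32, against 9.22 and 8.44 in WT. FMNL3 had a difference of -1.22 from the other mutant lines (SE 0.18), with an adjusted p of 0.0807 by limma. Its ORC1BP32 minus WT difference was -0.48, with 4.53 and 4.18 in ORC1BP32, against 4.83 and 4.84 in WT. Neither difference passed the threshold in this fit, and that of FMNL3 did with a replicate block (adjusted p = 0.0282).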

How the results depend on the processing

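The 2 calls against WT were also made without the intensity trend, with the stricter filter and with means over probe sets (2 each). They became 0 after quantile normalization (1197 genes at an unadjusted p under 0.05), after centring on array medians (960) and with no filter on dim probe sets (1275), and 19 with only the 4 arrays compared (2 higher, 17 lower). Quantile normalization moved the median of all genes to 0.08. Leaving out 1 array gave 0 to 5 calls. It was 0 without either ORC1BP32 array (499 and 1100 at an unadjusted p under 0.05), without WT replicate 2 (812) and without either ORC2BP8 array. It was 5 without either ORC2B2 array. The 3 calls made without WT replicate 1 were ANKRD22, FGF19 and GPR15, and ANKRD22 and GPR15 had passed the filter on the WT arrays alone. With 1 array left, its spread is assumed to be that of the other lines.

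A replicate block gave 57 calls against WT (23 higher, 0.213%, and 34 lower, 0.315%). Of the list members described above, CDC6, MCM5, GINS2, CCNE2, MYBL2 and INSIG1 were among the higher ones. DDIT3, ASNS, SARS1, AARS1 and CARS1 were among the lower ones. MCM2, FEN1, CLSPN, CDC25A, FOXM1, ACAT2 and MVD were not called. The block gave 29 calls against the other mutant lines, among them GRHL2, SAMD9, IRS1, FMNL3, NRG1, POPDC1 and PLK2. The numbers are not known to pair cultures. Same-numbered deviations correlated at 0.25 between ORC1BP32 and WT and at 0.08 to 0.57 over all pairs of lines, 1 of them not above 0.1, so the block stayed an alternative. Against the other mutant lines, leaving out 1 array gave 0 to 6 calls, and every other setting gave 0.

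Stretches numbered 0 with windows of 31 genes. Of the differences of named genes from WT, 6 values changed sign, all of genes far from the threshold. Over the fits that leave out 1 array, ERAP2 lay between -0.229 and 0.0228, TAPBP between -0.232 and 0.0933 and SNAI1 between -0.0518 and 0.973. CTAG2 lay between -0.0528 and 0.793, and SRSF4 between -0.165 and 0.0641. Of the list medians, 56 of the alternative values moved by more than the spread and 196 did not. Counts of list members without 1 array or with the block were chosen after seeing the data.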

Other observations

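Among groups not described above, regulators of apoptosis had 4 of 21 tested genes higher and 0 lower at an unadjusted p under 0.05, with a median difference of 0.19, against 5.28% higher and 4.82% lower over all genes. Of these, PMAIP1 and BAX are also p53 targets counted above. The other 2 are BCL2L12, which had 7.69 and 7.36 in ORC1BP32, against 6.52 and 6.74 in WT (0.90, SE 0.24, limma adjusted p = 0.241), and the pore-forming BAK1 (0.54). Without ORC1BP32 replicate 1 or WT replicate 1 the count was 1, and without WT replicate 2 it was 2. Of 12 tested genes of NRF2 and ferroptosis, 3 were higher and 0 lower, with a median of 0.12. Heme oxygenase, HMOX1, had 7.63 and 7.22 in ORC1BP32, against 6.49 and 6.62 in WT (0.87, adjusted p = 0.349). KEAP1, the adaptor that targets NRF2 for degradation, had a difference of 0.65, and the lipid peroxidase GPX4 one of 0.50. None of these genes passed the adjusted threshold, and the NRF2 count was 0 without ORC1BP32 replicate 1 and 1, in the lower direction, without WT replicate 1.

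Signalling lists lay near the median of all genes, with single members apart. In the WNT list, with 1 of 15 genes at an unadjusted p under 0.05, the feedback inhibitor AXIN2 had 7.10 and 7.42 in ORC1BP32, against 6.05 and 5.99 in WT (1.24, SE 0.28, limma adjusted p = 0.201). In the TGF-beta and BMP list 3 of 20 were higher and 1 lower (median 0.10), and these were the matrix gene THBS1 (1.10), the inhibitor SMAD7 (0.74), BMP7 (0.51) and SMAD4 (-0.37). The count of 4 became 0 without ORC1BP32 replicate 1 and, leaving out a WT array, 2 (replicate 1) or 1 (replicate 2). Of 14 mesenchymal genes, SNAI2 (0.70) and MMP14 (0.63) were higher (median 0.02), a count that was 0 without ORC1BP32 replicate 1 and 1 without either WT array. Of 14 intestinal differentiation genes, CEACAM1 was higher (0.79) and DPP4 lower (-0.70). DPP4 had 3.74 and 3.67 in ORC1BP32, against 3.90 and 4.91 in WT. Only WT replicate 2 stood apart, and the other 3 arrays were below the array median. Medians were 0.01 for 20 glycolysis and hypoxia genes, 0.03 for 22 ribosome biogenesis and MYC genes, 0.03 for 28 ERK and immediate early genes, 0.06 for 13 NF-kB and cytokine genes and 0.06 for 21 centrosome genes. They were 0.09 for 30 heterochromatin and Polycomb genes, 0.18 for 9 oxidative phosphorylation genes, -0.01 for 4 antigen presentation genes and 0.27 for 3 cancer-testis antigens, turning to -0.30 with the stricter filter. MYC itself had 8.75 and 9.25 in ORC1BP32, against 9.30 and 9.90 in WT (-0.60, adjusted p = 0.742). At an unadjusted p under 0.05 the counts in these 9 lists ranged from 0 to 3. Probe sets of 5 genes passed the filter on the ORC1BP32 arrays alone and of 8 genes on the WT arrays alone.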
